A study of Mus musculus with 6 samples.

Results

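The interferon and double-stranded RNA response was followed through 41 genes, chosen by gene symbol as sensors, regulators and induced genes of this pathway. All 41 were found once each among the 54532 genes of the table. Polyadenylated RNA was taken from hearts of mice at the age of 4 days. The Wtap-CKO group, a conditional knockout of Wtap, had 3 hearts, and the Wtapflox/flox group, written Wtap-flox from here on, also had 3. Neither the labels nor the design text used here give the strain, the sex, the Cre driver or which exons were deleted. Wtap encodes a non-catalytic partner of the methyltransferases that place N6-methyladenosine (m6A) on messenger RNA.

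Cells detect viral or misplaced RNA with cytosolic helicases, of which RIG-I (Ddx58) and MDA5 (Ifih1) are the best known. These signal through the adaptor Mavs to interferon regulatory factors, which induce type I interferons. Interferon then acts through its receptor, and a complex that contains Stat2 and Irf9 binds a promoter motif, the interferon-stimulated response element, in front of genes that hinder translation, RNA stability or membrane fusion of viruses. In a heart the pathway can be used by cardiomyocytes, endothelial cells, fibroblasts and resident leukocytes. RNA of a heart does not separate them, so more cells of a type and more RNA per cell cannot be told apart.

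The promoters of several of these genes carry the response element close to the start, and some are shown as examples. All of those shown but Bst2 belong to genes with all Wtap-CKO values above all Wtap-flox values. Ddx60, Ifitm2, Rsad2 and Stat2, whose groups overlapped, also hold its core before the start and are not shown. Sequences are from RefSeq (GRCm38.p6), read 5′ to 3′ on the gene's own strand, and end before the annotated start. Capitals mark the core of the element, GAAA, any 2 bases and GAAA again, or its reverse complement, TTTC, any 2 bases and TTTC. The Ifit3 stretch is the whole 250 bases before the start (chr19:34583279-34583528, plus strand). The others are 80 bases around the matches, at chr19:34607751-34607830 (Ifit3b, plus), chr19:34640759-34640838 (Ifit1, plus), chr4:156200846-156200925 (Isg15, minus), chr5:120907526-120907605 (Oas1a, minus), chr5:120777690-120777769 (Oas3, minus) and chr8:71537555-71537634 (Bst2, minus).
Ifit3: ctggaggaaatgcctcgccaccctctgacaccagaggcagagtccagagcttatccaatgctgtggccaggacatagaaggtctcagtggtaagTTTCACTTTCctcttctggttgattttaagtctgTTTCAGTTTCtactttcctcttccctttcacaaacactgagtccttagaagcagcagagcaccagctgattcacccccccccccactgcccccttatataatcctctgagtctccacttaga
Ifit3b: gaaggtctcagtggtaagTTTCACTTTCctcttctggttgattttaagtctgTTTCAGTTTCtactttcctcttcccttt
Ifit1: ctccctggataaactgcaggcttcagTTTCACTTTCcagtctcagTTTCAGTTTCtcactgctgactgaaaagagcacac
Isg15: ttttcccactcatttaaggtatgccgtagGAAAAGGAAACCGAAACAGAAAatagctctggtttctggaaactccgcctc
Oas1a: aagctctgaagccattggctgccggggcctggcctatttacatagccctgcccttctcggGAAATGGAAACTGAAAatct
Oas3: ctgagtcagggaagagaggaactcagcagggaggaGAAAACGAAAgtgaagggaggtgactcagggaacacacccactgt
Bst2: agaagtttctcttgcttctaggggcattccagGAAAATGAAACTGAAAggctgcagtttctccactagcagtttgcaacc

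The 80 bases shown for Ifit3b occur unchanged in the Ifit3 promoter, and both genes and Ifit1 hold 2 matches. In Isg15, 3 matches form a row in which each overlaps the next, and in Oas1a and Bst2 2 matches overlap. The core was searched on both strands from 250 bases before to 50 bases after each start. Of the 41 genes 31 had such a window, and 15 of these 31 held the core, against 3.99% of 27025 genes with a window. The remaining 8 of the 15 were Ifitm3, Ifitm2, Ddx58, Ifih1, Ddx60, Eif2ak2, Stat2 and Rsad2. Of the 15 genes with the core, 7 had all Wtap-CKO values above all Wtap-flox values and 8 had overlapping groups, where 19.8% of all genes averaging 1 FPKM or more and 10.1% of those between 0.1 and 1 FPKM had Wtap-CKO above. Among the 16 with a window but without it, 7 had Wtap-CKO above, 1 below and 8 overlapped. TTCNNNGAA, the palindrome bound by STAT dimers, was held by 9 of the 31, against 9.55% of all genes with a window. In Bst2 and Ifitm3 it overlapped the core. Among the genes with Wtap-CKO above, Ifit3 and Oasl2 reached a mean of 1 FPKM only through Wtap-CKO. The same held for Oas3 and Ifit3b at 0.1 FPKM, so these counts support nothing by themselves. A match is a description of letters only.

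**Figure D1:**
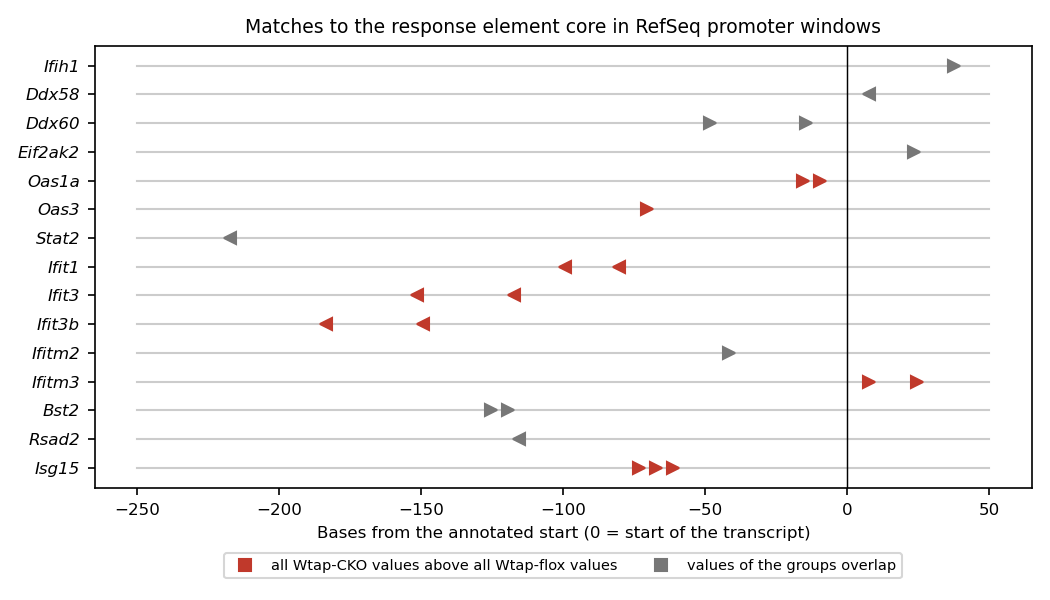
Positions of matches to the response element core in the promoter windows of the 15 genes that hold 1 or more, in bases from the annotated start. Arrowheads point right for the gene's own strand and left for the other strand, red marks the 7 genes whose Wtap-CKO values all lay above the Wtap-flox values, and grey marks the 8 whose groups overlapped.

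The libraries held from 15649028 to 18045599 reads (or pairs) in genes. Wtap itself stood at 9.32, 7.75 and 9.46 FPKM in Wtap-CKO 1 to 3, against 7.77, 8.74 and 10.9 FPKM in Wtap-flox 1 to 3 (log2 fold change -0.04, limma adjusted p = 0.893). As it is not known which exons were deleted, this value over the gene is no check of the labels. FPKM is a count divided by gene length and by a library size. The sizes implied by the deposited values followed median-ratio size factors, which scale libraries by their typical gene, and not the total reads in genes. The first principal component, with 52.6% of the variance, separated the groups. The second, with 20.4%, held Wtap-CKO 3 at one end and Wtap-CKO 1 and 2 at the other, with the Wtap-flox libraries between them. All 8 cardiomyocyte markers, Myh6 and Tnnt2 among them, were well above the level filter.

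Most of the 41 genes stood higher in Wtap-CKO hearts, and few passed the test. The ratio of mean FPKM, Wtap-CKO over Wtap-flox, had a median of 1.31 over the genes averaging 1 FPKM or more. That median was 2.22 over the genes under 1 FPKM, which rest on few reads. Of these, Zbp1, Oas3, Ifit3b and Mx1 averaged 0.1 FPKM or more only through Wtap-CKO, and no median ratio of all genes is given beside it. The 27 genes that averaged 1 FPKM or more over all 6 libraries were tested by limma on log2(FPKM + 1) with Benjamini-Hochberg adjustment over all 12568 genes tested. Ifit3, Oasl2 and Rtp4 rose and 0 of the 27 fell. These 3 are 11.1% of the 27, against 9.91% of all tested genes called higher and 6.69% called lower, so the share called is near the background. Ifit3 and Oasl2 averaged 0.684 and 0.974 FPKM in Wtap-flox, so they met the filter only through their Wtap-CKO values, and the count supports nothing by itself. Without a filter Ifit3 passed (limma adjusted p = 0.0462), and Oasl2 (0.0655) and Rtp4 (0.0978) did not. In all 16.6% of tested genes were called, and 59.7% of those were higher, or 33.4% with TPM scaling (each library rescaled to a fixed total), which moved the median of all genes by -0.16. Unadjusted, 10 were higher and 1 lower at p below 0.05, against 17.5% and 14.2% of all tested genes. The log2 fold change lay above 0 for 26 of the 27 genes, against 50.4% of all tested genes. With TPM scaling it did for 20 of the 27, against 34.9% of all tested genes. Its median was 0.25 over the 27 genes and 0.00 over all 12568. All 3 Wtap-CKO values lay above all 3 Wtap-flox values in 10 of the 27 genes (37%), against 19.8% of all tested genes, and below them in 1, against 17.3%. Ifit3 and Oasl2 are among the 10, so this share supports nothing by itself either. It also depends on the scale, since lying apart was judged on FPKM as deposited, here and for single genes below. Summed FPKM was 357870 to 388328 in Wtap-CKO libraries and 315632 to 339917 in Wtap-flox libraries, so TPM scaling lowers Wtap-CKO values relative to Wtap-flox. The groups of Ifit2, Isg15, Irf3, Irf9, Parp9 and Dtx3l then overlap, while those of Ifit3, Oasl2, Rtp4 and Ifitm3 stay apart. The genes were chosen by name with earlier results of these data known, and several share a family or a locus, so these shares are descriptions.

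**Figure D2:**
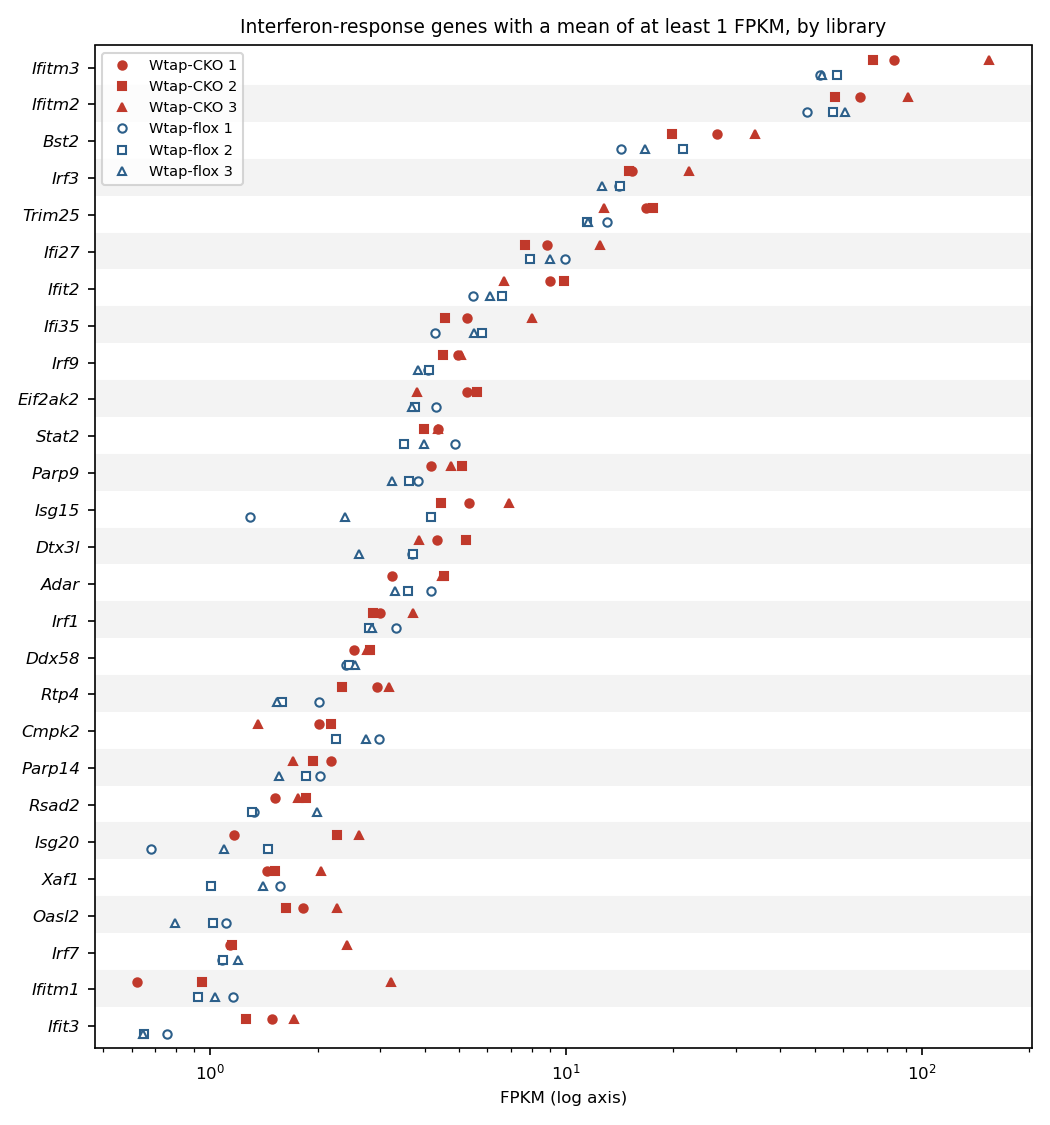
Expression of the 27 interferon-response genes that averaged 1 FPKM or more, in FPKM on a log axis, ordered by mean. Red filled symbols are the 3 Wtap-CKO libraries and blue open symbols the 3 Wtap-flox libraries, with 1 shape per library number. The groups lie apart in 11 rows, among them Ifitm3, Isg15, Oasl2 and Ifit3, and Wtap-CKO 3 lies far to the right for Ifitm3 and Ifitm1.

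The IFIT proteins bind viral RNA through tetratricopeptide repeats and block its translation. Ifit3 (ENSMUSG00000074896, chromosome 19, 34583531 to 34588731, plus strand, in the file's coordinates, which are those of GRCm38) was measured at 1.49, 1.26 and 1.72 FPKM in Wtap-CKO 1 to 3, against 0.756, 0.649 and 0.647 FPKM in Wtap-flox 1 to 3. No value of one group reached the other, and Wtap-CKO was higher by 0.56 on the log2 scale (95% interval 0.26 to 0.87, limma adjusted p = 0.0239). Ifit2 stood at 8.99, 9.89 and 6.67 FPKM in Wtap-CKO, against 5.48, 6.58 and 6.09 FPKM in Wtap-flox. Its groups did not overlap, but Wtap-CKO 3 lay only just above the highest Wtap-flox library. The log2 fold change of 0.42 did not pass (adjusted p = 0.0925). Over the left-out libraries it ran from 0.31 without Wtap-CKO 2 (adjusted p = 0.205) to 0.57 without Wtap-CKO 3 (0.0196). The other 2 genes of the cluster, Ifit1 and Ifit3b, stayed under 1 FPKM and are given below. Ifit3 and Ifit3b are close copies, and how reads that fit both were counted is not stated, so the split between them is uncertain.

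Among the enzymes that bind double-stranded RNA, the OAS family includes enzymes that make the second messenger 2-5A. Oasl2 (ENSMUSG00000029561, chromosome 5, 114896936 to 114912234, plus strand) stood at 1.82, 1.64 and 2.27 FPKM in Wtap-CKO 1 to 3, against 1.11, 1.02 and 0.797 FPKM in Wtap-flox 1 to 3. The groups lay apart, with a log2 fold change of 0.56 and a 95% interval of 0.24 to 0.87 (adjusted p = 0.0284, limma). Eif2ak2, which encodes the kinase PKR, stood at 5.28, 5.62 and 3.82 FPKM in Wtap-CKO, against 4.31, 3.75 and 3.68 FPKM in Wtap-flox. Wtap-CKO 3 lay among the Wtap-flox libraries here, and the difference of 0.25 did not pass (adjusted p = 0.269). It was 0.17 without Wtap-CKO 2 (adjusted p = 0.503), 0.39 without Wtap-CKO 3 (0.062) and 0.13 with TPM scaling (0.647). Adar, whose product edits adenosines in double-stranded RNA, had 4.08 ± 0.723 FPKM in Wtap-CKO and 3.69 ± 0.439 FPKM in Wtap-flox (SD, n = 3 each). Its log2 fold change of 0.11, with an interval of -0.21 to 0.43, was -0.027 with TPM scaling.

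Among membrane proteins that restrict viruses, Rtp4 rose, and Ifitm3 and Ifitm2 had the highest FPKM of the 41 genes. Rtp4 (ENSMUSG00000033355, chromosome 16, 23520291 to 23614222, plus strand), a receptor transporter protein induced by interferon, stood at 2.94, 2.34 and 3.17 FPKM in Wtap-CKO, against 2.02, 1.59 and 1.54 FPKM in Wtap-flox. The groups did not overlap, with a log2 fold change of 0.49 and a 95% interval of 0.18 to 0.80 (adjusted p = 0.0407, limma). Its locus overlaps Masp1 on the other strand by 525 bases, and the strandedness of the counting is not stated. Leaving out any 1 library other than Wtap-CKO 2 ended the calls of Oasl2 and Rtp4 (adjusted p between 0.0524 and 0.128). The call of Ifit3 ended without Wtap-CKO 1 or any 1 Wtap-flox library (0.0564 to 0.0793), and without Wtap-CKO 3 its mean fell below 1 FPKM and it was not tested.

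Ifitm3 (ENSMUSG00000025492, chromosome 7, 141009586 to 141010770, minus strand), which hinders the fusion of enveloped viruses in endosomes, stood at 83.3, 72.7 and 154.9 FPKM in Wtap-CKO 1 to 3, against 51.8, 57.8 and 52.4 FPKM in Wtap-flox 1 to 3. All Wtap-CKO values were higher, and that of Wtap-CKO 3 was far above the others. On the log2 scale it was 0.85 higher (interval 0.25 to 1.45, limma adjusted p = 0.0598), which did not pass, and without Wtap-CKO 3 it was 0.52 higher (adjusted p = 0.0364). It also passed without Wtap-CKO 2, at 1.06 (adjusted p = 0.028). It did not pass without Wtap-CKO 1 (0.0909), without any 1 Wtap-flox library (0.125 to 0.169) or with TPM scaling (0.0714). Its neighbour Ifitm2 had 71.8 ± 17.8 FPKM in Wtap-CKO and 55.0 ± 6.75 FPKM in Wtap-flox (SD, n = 3 each), with overlapping groups (0.36, adjusted p = 0.24). Its log2 fold change was 0.17 without Wtap-CKO 3 (adjusted p = 0.49) and 0.20 with TPM scaling (0.428). Ifitm1 stood at 0.623, 0.947 and 3.21 FPKM in Wtap-CKO, against 1.15, 0.920 and 1.03 FPKM in Wtap-flox. Only Wtap-CKO 3 was high, and Wtap-CKO 1 was the lowest of the 6. Bst2, also called tetherin because it holds budding virions at the cell surface, stood at 26.6, 19.9 and 34.0 FPKM in Wtap-CKO, against 14.2, 21.3 and 16.6 FPKM in Wtap-flox. Wtap-CKO 2 lay below Wtap-flox 2, and the log2 fold change of 0.59 did not pass (adjusted p = 0.0944). It passed without Wtap-CKO 2, at 0.78 (adjusted p = 0.0308), and was 0.40 without Wtap-CKO 3 (0.196).

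Isg15, a small ubiquitin-like protein that is joined to other proteins, had the largest log2 fold change of the 27 with all libraries, while without Wtap-CKO 1, Wtap-CKO 2 or Wtap-flox 1 that of Ifitm3 was larger. Isg15 (ENSMUSG00000035692, chromosome 4, 156199424 to 156200818, minus strand) stood at 5.32, 4.45 and 6.90 FPKM in Wtap-CKO 1 to 3, against 1.29, 4.16 and 2.39 FPKM in Wtap-flox 1 to 3. The groups did not overlap, but Wtap-flox 2 nearly reached Wtap-CKO 2. The log2 fold change of 0.92, with an interval of 0.22 to 1.63, did not pass (adjusted p = 0.0803). Over the left-out libraries it ran from 0.63 without Wtap-flox 1 (adjusted p = 0.127) to 1.22 without Wtap-flox 2 (0.0148). Parp9, an ADP-ribosyltransferase, stood at 4.18, 5.10 and 4.75 FPKM in Wtap-CKO, against 3.84, 3.62 and 3.23 FPKM in Wtap-flox. Dtx3l, the ubiquitin ligase that binds it, stood at 4.35, 5.21 and 3.86 FPKM in Wtap-CKO, against 3.68, 3.71 and 2.61 FPKM in Wtap-flox. The groups lay apart in both, and neither log2 fold change (0.31 for Parp9, adjusted p = 0.107, and 0.34 for Dtx3l, adjusted p = 0.159) passed. Without Wtap-flox 3 that of Dtx3l was 0.21 (adjusted p = 0.401), and with TPM scaling that of Parp9 was 0.21 (0.36). The genes overlap by 682 bases on opposite strands. Parp14, another ADP-ribosyltransferase, had 0.07 with overlapping groups, and -0.056 with TPM scaling.

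Among the sensors, Ddx58 stood at 2.53, 2.81 and 2.75 FPKM in Wtap-CKO, against 2.41, 2.45 and 2.55 FPKM in Wtap-flox. The groups overlapped, and its interval of -0.15 to 0.34 on the log2 scale bounds the difference (-0.035 with TPM scaling). Trim25, a ubiquitin ligase that takes part in RIG-I signalling, stood at 16.8, 17.6 and 12.8 FPKM in Wtap-CKO, against 13.1, 11.5 and 11.6 FPKM in Wtap-flox. Its log2 fold change was 0.35 (adjusted p = 0.13). It was 0.48 without Wtap-CKO 3 (adjusted p = 0.0286), 0.27 without Wtap-CKO 2 (0.27) and 0.20 with TPM scaling (0.429).

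None of the 5 transcription factors passed, and unadjusted p was below 0.05 for 0 of them. Irf3, the factor activated by sensing, stood at 15.3, 15.0 and 22.1 FPKM in Wtap-CKO, against 14.1, 14.2 and 12.6 FPKM in Wtap-flox. Irf9, the DNA-binding part of the interferon-activated complex, stood at 4.98, 4.51 and 5.08 FPKM in Wtap-CKO, against 4.08, 4.11 and 3.82 FPKM in Wtap-flox. The groups lay apart in both, by little, and the log2 fold change was 0.32 for Irf3 (adjusted p = 0.207) and 0.23 for Irf9 (adjusted p = 0.193). Irf3 had 0.15 without Wtap-CKO 3 (adjusted p = 0.418) and 0.17 with TPM scaling (0.466), and Irf9 had 0.10 with TPM scaling (0.619). Irf3 overlaps Bcl2l12 by 1065 bases on the other strand, and Irf9 overlaps Rnf31 by 123 bases. Irf7, the factor that amplifies the response, stood at 1.13, 1.15 and 2.42 FPKM in Wtap-CKO, against 1.08, 1.08 and 1.196 FPKM in Wtap-flox. Only Wtap-CKO 3 was high, and the log2 fold change of 0.24 was 0.015 without it. Stat2 had a log2 fold change of 0.04 and Irf1 of 0.07, with overlapping groups, and with TPM scaling they were -0.11 and -0.070.

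Among enzymes that act on nucleotides or RNA, Cmpk2, a mitochondrial nucleotide kinase, was the only 1 of the 27 genes whose log2 fold change lay below 0 as deposited (7 did with TPM scaling). It stood at 2.02, 2.18 and 1.36 FPKM in Wtap-CKO, against 2.98, 2.25 and 2.74 FPKM in Wtap-flox. All Wtap-CKO values were lower, and the difference of -0.36 did not pass (adjusted p = 0.135). It was -0.23 without Wtap-CKO 3 (adjusted p = 0.292) and -0.60 with TPM scaling (0.0759). Rsad2, its neighbour on chromosome 12, which encodes viperin, had 1.71 ± 0.176 FPKM in Wtap-CKO and 1.54 ± 0.391 FPKM in Wtap-flox (SD, n = 3 each; log2 fold change 0.10). Isg20, a 3′ to 5′ exonuclease, had 2.02 ± 0.759 FPKM in Wtap-CKO and 1.08 ± 0.388 FPKM in Wtap-flox, with overlapping groups (0.52, adjusted p = 0.141). Over the left-out libraries its log2 fold change ran from 0.37 without Wtap-CKO 3 (adjusted p = 0.312) to 0.75 without Wtap-CKO 1 (0.0466). Ifi27 stood at 8.82, 7.68 and 12.5 FPKM in Wtap-CKO, against 9.93, 7.89 and 9.003 FPKM in Wtap-flox. The interferon-induced genes Ifi27, Ifi35 and Xaf1 had log2 fold changes of 0.08, 0.15 and 0.20, all with overlapping groups, and Ifi27 had -0.078 with TPM scaling.

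**Figure D3:**
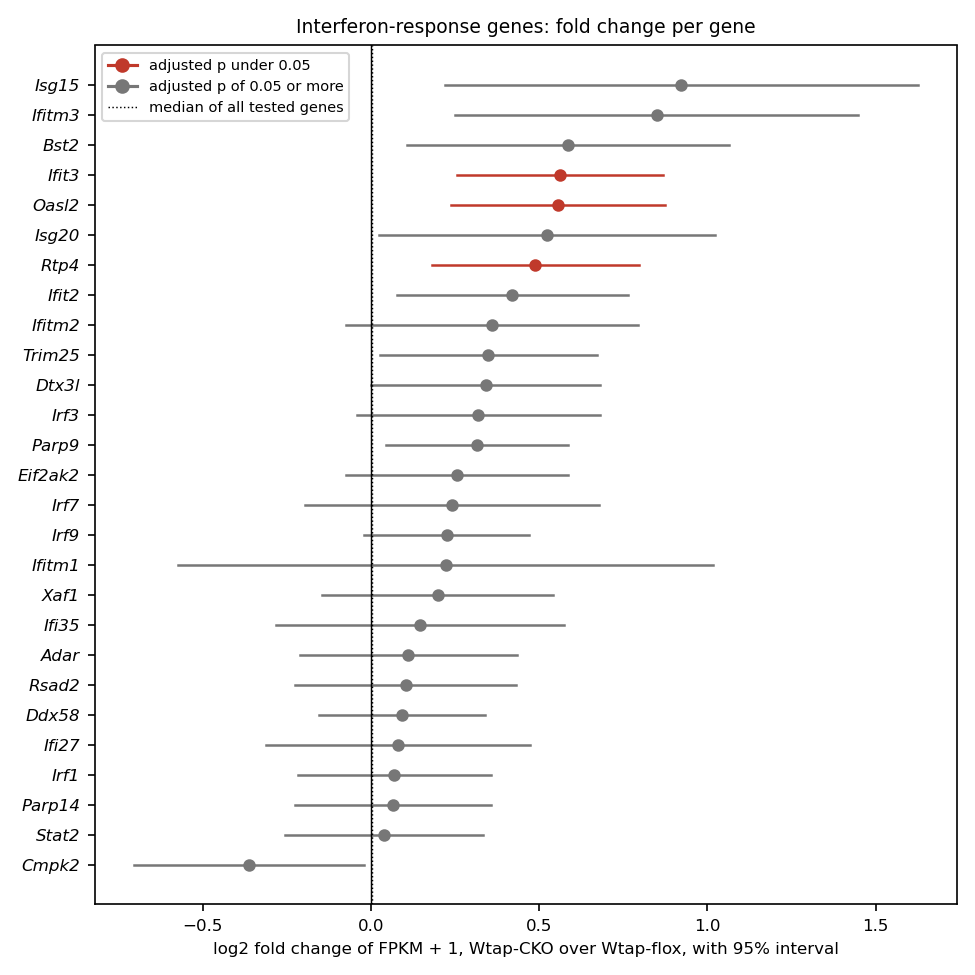
Log2 fold change of FPKM + 1 for the 27 tested genes, Wtap-CKO over Wtap-flox, with 95% intervals from limma and the largest at the top. Ifit3, Oasl2 and Rtp4, in red, passed an adjusted p of 0.05. Isg15 had the largest plotted value at 0.92, and Cmpk2 was the only gene below 0 at -0.36, where 7 genes were below 0 with TPM scaling.

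In the 14 genes under 1 FPKM the mean FPKM of Wtap-CKO divided by that of Wtap-flox ran from 0.643 (Ddx60) to 3.79 (Ifit3b), on few reads. Over the 27 tested genes it ran from 0.698 (Cmpk2) to 2.18 (Ifit3). The deposited values gave whole reads, so these genes could be counted. In 9 of the 14 (64.3%) all Wtap-CKO FPKM values lay above all Wtap-flox values, against 10.1% of the 6351 genes between 0.1 and 1 FPKM, and in 0 they lay below, against 13.3%. An exact two-sided permutation test gave p = 0.1 for each of these 9, the smallest that 3 against 3 allows. All 14 entered a fit of limma-voom to the recovered reads of 18919 genes averaging 0.1 FPKM or more, a test added after the data were seen. Of all 41 genes 7 rose in it (17.1%, against 8.77% of its genes called higher) and 0 fell (against 6.86%), Ifitm3 (adjusted p = 0.028), Isg15 (0.0333), Oasl2 (0.00582) and Ifit3 (0.045) among them, while Rtp4 did not pass (0.0699). Without Wtap-CKO 3 it called 5 of the 41 higher, Ifitm3 (0.018), Oasl2 (0.0165), Oas3 (0.0489), Ifit2 (0.00787) and Trim25 (0.0163), of which 3 were among the 7, while Isg15 (0.0833) and Ifit3 (0.101) did not pass. Of the 14, Dhx58, Oas1a and Oas3 rose, 21.4% of the 14, against 3.79% of genes between 0.1 and 1 FPKM called higher. Oas3, at 0.175 FPKM in Wtap-CKO and 0.0528 FPKM in Wtap-flox, met the 0.1 FPKM filter only through Wtap-CKO. The same held for Zbp1, Ifit3b and Mx1, which were not called. So the share called supports nothing by itself, and neither does the share lying apart, since Oas3 and Ifit3b are among the 9. By limma on log2(FPKM + 1) with the same filter, where the pseudocount exceeds these levels, 0 of the 14 passed.

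Oas3 (ENSMUSG00000032661, chromosome 5, 120753098 to 120777661, minus strand), an OAS enzyme that responds to long double-stranded RNA, had 23, 17 and 21 reads in Wtap-CKO 1 to 3, against 3, 7 and 9 reads in Wtap-flox 1 to 3. By voom Wtap-CKO was 1.77 higher on the log2 scale (95% interval 0.63 to 2.92, adjusted p = 0.0341), and without Wtap-CKO 3 it was 1.80 (adjusted p = 0.0489). Its neighbour Oas1a, for another OAS enzyme, had 31, 36 and 41 reads in Wtap-CKO, against 12, 25 and 12 reads in Wtap-flox. The log2 fold change by voom was 1.27 (adjusted p = 0.0489), and 1.22 without Wtap-CKO 3 (adjusted p = 0.083). Oas1a belongs to a family of close copies, so reads may be shared with its paralogs.

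Dhx58 (ENSMUSG00000017830, chromosome 11, 100694884 to 100704271, minus strand) encodes LGP2, the helicase that modulates RIG-I and MDA5. It had 38, 28 and 45 reads in Wtap-CKO 1 to 3, against 16, 13 and 16 reads in Wtap-flox 1 to 3. By voom Wtap-CKO was 1.31 higher on the log2 scale (95% interval 0.48 to 2.14, adjusted p = 0.0307), and 1.21 without Wtap-CKO 3 (adjusted p = 0.0682). It shares 2637 bases with an antisense gene of 0.0515 FPKM, Dhx58os. The sensor Ifih1 had 108, 90 and 89 reads in Wtap-CKO, against 94, 100 and 117 reads in Wtap-flox. Its groups overlapped, and the interval by voom ran from -0.55 to 0.42.

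Oas2, Oasl1, Ifit1, Ifit3b, Usp18 and Ifi44 also lay apart in FPKM, and none passed by voom (adjusted p between 0.0598 and 0.153). Oasl1 had 33, 13 and 16 reads in Wtap-CKO, against 8, 2 and 10 reads in Wtap-flox. Ifit1 had 22, 25 and 40 reads in Wtap-CKO, against 12, 18 and 8 reads in Wtap-flox. In both the lowest Wtap-CKO library stood close above the highest Wtap-flox library. Oas2 had 36, 37 and 74 reads in Wtap-CKO, against 23, 25 and 20 reads in Wtap-flox. Usp18, which removes Isg15 from proteins and dampens the interferon receptor, had 52, 36 and 47 reads in Wtap-CKO, against 27, 31 and 25 reads in Wtap-flox. Ifit3b had 5, 9 and 11 reads in Wtap-CKO, against 5, 0 and 2 reads in Wtap-flox, so its groups share the value of 5 reads and lay apart in FPKM only through library size. Ifi44 had 45, 34 and 55 reads in Wtap-CKO, against 25, 20 and 30 reads in Wtap-flox. Mx1, a dynamin-like GTPase, had 25, 7 and 21 reads in Wtap-CKO, against 3, 8 and 5 reads in Wtap-flox. Mx2, annotated as a polymorphic pseudogene in the file, had 83 reads in Wtap-CKO and 47 in Wtap-flox, and Zbp1, a sensor of Z-form nucleic acids, had 34 reads in Wtap-CKO and 17 in Wtap-flox. The groups of Mx1, Mx2 and Zbp1 overlapped. Ddx60, a DExD/H-box helicase, had 43, 29 and 56 reads in Wtap-CKO, against 73, 40 and 94 reads in Wtap-flox, and did not pass (adjusted p = 0.262).

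**Figure D4:**
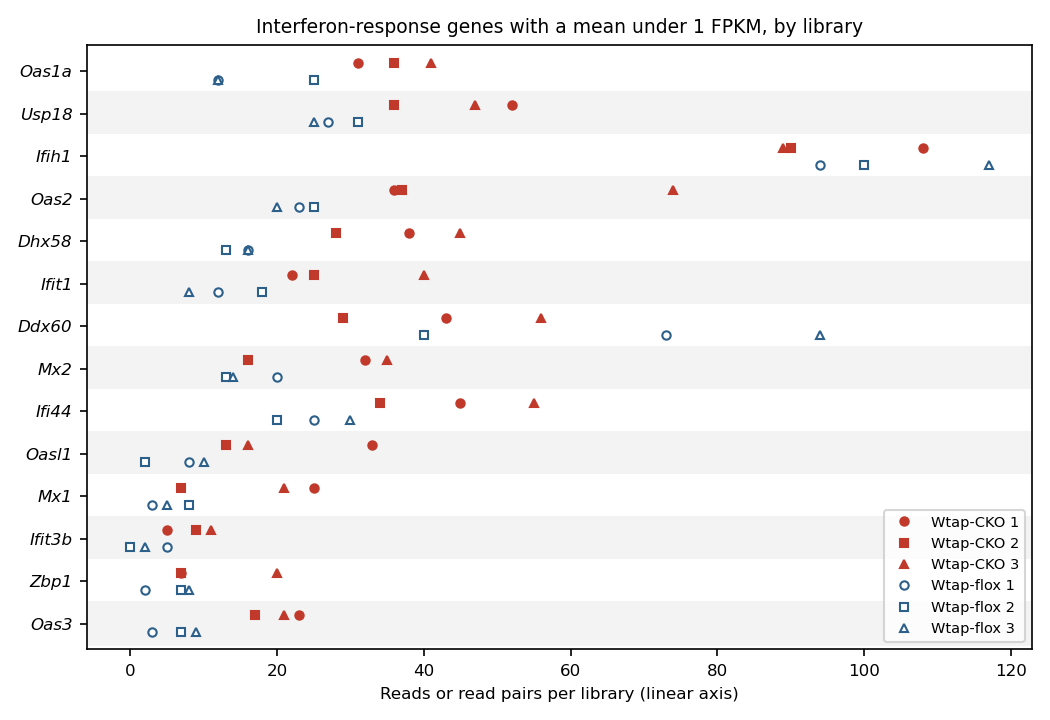
Reads or read pairs per library for the 14 interferon-response genes with a mean under 1 FPKM, on a linear axis, ordered by mean FPKM. Red filled symbols are Wtap-CKO and blue open symbols Wtap-flox libraries. Oas3, Dhx58 and Oas1a show groups that lie apart, while Ifih1 and Ddx60 do not.

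The libraries of the Wtap-CKO group differed among themselves in which genes were high. Wtap-CKO 3 was the highest Wtap-CKO library for 16 of the 27 tested genes (59.3%), against 37% of all tested genes, and the lowest for 6 (22.2%), against 38.3%. Relative to the mean of Wtap-CKO 1 and 2 on the log2(FPKM + 1) scale, it was higher by 1.25 for Ifitm1, 0.98 for Ifitm3, 0.68 for Irf7, 0.61 for Ifi35, 0.56 for Ifitm2 and 0.55 for Bst2. For Ifit2, Eif2ak2, Trim25 and Cmpk2 the same difference was -0.44, -0.42, -0.40 and -0.39. Ifit3, Oasl2 and Rtp4 had 0.20, 0.26 and 0.20.

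Summed macrophage and neutrophil markers were higher in every Wtap-CKO library than in any Wtap-flox library, and highest in Wtap-CKO 3. The summed FPKM of 14 macrophage and monocyte markers was 91.1, 77.9 and 148 in Wtap-CKO 1 to 3, against 52.3, 56.3 and 59.7 in Wtap-flox 1 to 3. Of the 9 tested, 4 rose and 0 fell, where 9.91% of all tested genes were called higher and 6.69% lower. The 4 included the complement genes C1qb (0.94) and C1qa (0.78). Each of the 4 lost its call when some 1 library was left out. That of C1qa ended without any 1 library other than Wtap-CKO 2 (limma adjusted p = 0.0544 without Wtap-CKO 3). That of C1qb ended without Wtap-flox 1 (0.0541) or Wtap-flox 2 (0.0563). The sum of 8 neutrophil markers was 14.3, 11.7 and 78.6 in Wtap-CKO, against 7.09, 8.86 and 5.17 in Wtap-flox, and Ly6g (1 read) and Elane (2 reads) had reads only in Wtap-CKO 3. Of 3 tested, Retnlg rose (1.68). Lymphocyte markers summed to 1.38 to 1.89 FPKM in Wtap-CKO and 1.02 to 1.42 FPKM in Wtap-flox. The sum of 6 markers of plasmacytoid dendritic cells, the main producers of type I interferon, was 6.42 to 6.62 FPKM in Wtap-CKO and 7.002 to 8.10 FPKM in Wtap-flox. The defining marker among them, Siglech, had 1 read in Wtap-CKO 3 and 0 in the other libraries. Endothelial markers summed to 264 to 280 FPKM in Wtap-CKO and 291 to 320 FPKM in Wtap-flox, and fibroblast markers to 425 to 568 FPKM in Wtap-CKO and 536 to 609 FPKM in Wtap-flox. Smooth muscle and pericyte markers summed to 764 to 991 FPKM in Wtap-CKO and 602 to 827 FPKM in Wtap-flox, and erythroid markers to 1226 to 2204 FPKM in Wtap-CKO and 660 to 2171 FPKM in Wtap-flox. Of the tested markers 1 of 8 endothelial ones rose and 2 fell, 0 of 8 fibroblast ones rose and 3 fell, and 1 of 7 smooth muscle and pericyte ones rose and 1 fell. None of the 8 cardiomyocyte, 5 erythroid and 1 plasmacytoid markers tested passed, and 0 of 10 lymphocyte markers reached the filter. The part of these cells in the levels of the interferon genes was not tested.

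**Figure D5:**
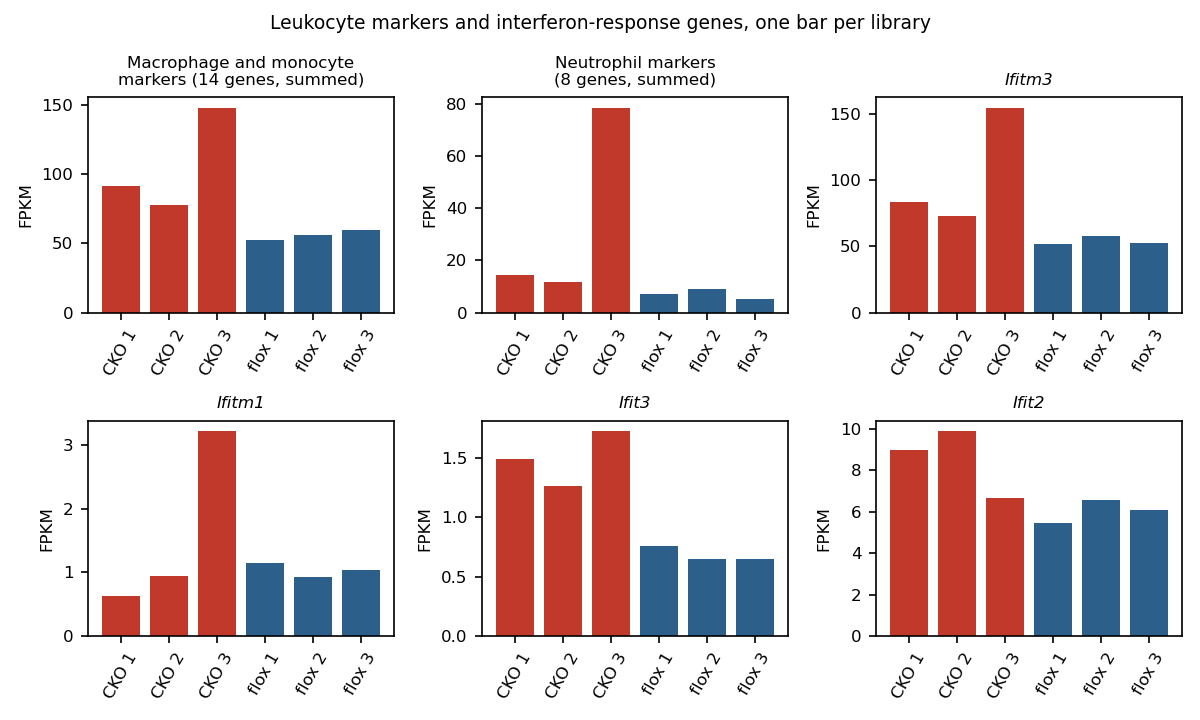
Summed FPKM of macrophage and monocyte markers and of neutrophil markers, and FPKM of Ifitm3, Ifitm1, Ifit3 and Ifit2, with 1 bar per library, Wtap-CKO in red and Wtap-flox in blue. Neutrophil markers, Ifitm3 and Ifitm1 were highest in Wtap-CKO 3, while Ifit2 was lower in Wtap-CKO 3 than in Wtap-CKO 1 and 2.

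The interferons themselves were almost without reads. Among 21 interferon genes, 16 had 0 reads in all 6 libraries. The other 5, Ifna16, Ifna9, Ifnab, Ifng and Ifnz, had between 1 and 5 reads each over the 6 libraries, 10 in Wtap-CKO and 2 in Wtap-flox in all. A count of 0 in a library allows up to 3 reads, by counting error only. Of 6 tested interferon and interleukin receptor chains 1 rose and 0 fell, with a median of -0.03, where 9.91% of all tested genes were called higher and 6.69% lower. Ifngr1, of the receptor for interferon gamma, rose by 0.43 (17.6 FPKM in Wtap-CKO, 12.7 FPKM in Wtap-flox; adjusted p = 0.039). Both chains of the type I receptor, Ifnar1 (-0.24) and Ifnar2 (0.24), did not pass. The call of Ifngr1 ended under 10 of the alternatives, among them leaving out any 1 library but Wtap-CKO 2.

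Of 13 tested genes of JAK-STAT signalling 2 rose and 0 fell, with a median of 0.05, beside the same 9.91% and 6.69%. They were Socs3, a feedback inhibitor of cytokine receptors, at 0.81 (3.93 FPKM in Wtap-CKO, 1.79 FPKM in Wtap-flox; adjusted p = 0.0163), and Stat3 at 0.46 (adjusted p = 0.036). Of 23 sensing and adaptor genes 1 rose and 1 fell, with a median of -0.01. Traf3, which links Mavs to kinases, rose by 0.45 (adjusted p = 0.0419), and Rnaseh2b, a subunit of an enzyme that cuts RNA in RNA-DNA hybrids, fell by 0.52 (adjusted p = 0.0454). Mavs had 0.26 and did not pass. Of 26 tested genes on a mixed list, of double-stranded RNA binding proteins and other factors such as further Eif2ak kinases, 0 rose and 1 fell, with a median of -0.08. This was Dgcr8, the partner of Drosha in microRNA processing, which fell by 0.43 (adjusted p = 0.0364), while Son had 0.31 without passing.

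Among other interferon-stimulated genes 5 of 39 tested rose and 1 fell, with a median of 0.07, against 9.91% and 6.69% of all tested genes. Plscr1, a membrane phospholipid scramblase, stood at 12.8, 11.5 and 11.5 FPKM in Wtap-CKO 1 to 3, against 7.06, 6.29 and 7.20 FPKM in Wtap-flox 1 to 3 (0.72, adjusted p = 0.00409, limma). Slfn9 of the Schlafen family stood at 3.61, 4.07 and 4.62 FPKM in Wtap-CKO, against 7.55, 7.55 and 6.72 FPKM in Wtap-flox (-0.70, adjusted p = 0.0061). The groups lay well apart in both, in opposite directions. Slfn2 rose by 0.82 and Plscr2 by 0.59. Of 16 antigen presentation genes 1 rose and 0 fell, with a median of 0.20. It was H2-K1, a class I heavy chain, at 0.59 (21.99 FPKM in Wtap-CKO, 14.1 FPKM in Wtap-flox; adjusted p = 0.0301), and its light chain B2m had 0.51 (adjusted p = 0.0925). The calls of single genes on these lists mostly ended when a library was left out, though Plscr1 and Slfn9 passed under all 18 alternatives, and the counts ranged from 1 to 7 higher for the other interferon-stimulated genes over the alternatives.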

How the data were processed

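Per the labels' protocols, total RNA of 3 hearts per group, described as independent biological replicates, was selected with poly-T beads and read from both ends. Per the submitters' processing notes, the tools were HISAT2 2.0.5 for alignment, featureCounts 1.5.0-p3 for counting and DESeq2 1.20.0. The authors deposited FPKM values, a column for each library. Multiplied by gene length, 100% of the values were whole multiples of the library's step (tolerance 0.01 of a step), which gave the reads. The implied library sizes matched median-ratio size factors. The notes name GRCm39, but gene positions matched GRCm38.p6 to within 1000 bases for 94.9% of 20427 coding genes, and GRCm39 for 3.28% of 21691.

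Genes averaging 1 FPKM or more were tested by limma 3.58.1 (R 4.3.3) on log2(FPKM + 1), using the trend and robust options, with two-sided p adjusted by Benjamini-Hochberg over all genes and a threshold of 0.05. The pseudocount of 1 understates changes of low genes. Recovered reads were fitted by limma-voom with the implied library sizes. Single genes under the filter had an exact permutation test. The procedure was tested on simulated data. Counting error grows as reads fall, so genes with few reads are least certain. The genes and lists were chosen with earlier results of these data known. By the naming rule all 41 genes may be named, with all libraries shown for those that passed, lay apart or were highest in their role, and from each list up to 4 tested genes by adjusted p plus 1 in the opposite direction. Of the lists, 2 symbols were not found in the file. Alternatives changed the pseudocount, filter, scaling, limma options and block, or left out a library. Other work used pandas 2.3.3 and scipy 1.17.1 under Python 3.11.15.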

Additional observations from a re-analysis of the deposited data

How the results depend on the processing

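The number of the 41 genes called higher was 3, and it was 1 with TPM scaling, 1 among genes averaging 5 FPKM or more, where 8 of them were tested, 1 without a filter and 7 by limma-voom on genes averaging 0.1 FPKM or more, an alternative added after the data were seen. With 1 library left out it was lowest at 0 (when Wtap-flox 1 or 3 was left out), 1 for Wtap-CKO 1 or Wtap-flox 2, 3 for Wtap-CKO 3 and highest at 5 for Wtap-CKO 2. None was called lower under any alternative. The median log2 fold change of the tested genes was 0.25, 0.43 with that limma-voom fit, where all 41 were tested, and between 0.17 and 0.35 under the other alternatives. Of the 14 genes under 1 FPKM, limma-voom called 3, 1 without Wtap-CKO 3, and limma on log2(FPKM + 1) called 0 with the filter at 0.1 FPKM and 0 without a filter. Over all genes 2086 were called, 1206 without a filter and between 1189 and 2016 with 1 library left out. Signs turned with TPM scaling, which moved the median of all genes by -0.16, for Ddx58 (-0.035), Adar (-0.027), Irf1 (-0.070), Stat2 (-0.11), Parp14 (-0.056) and Ifi27 (-0.078). With 1 library left out, values ranged from -0.017 (Wtap-CKO 3) to 0.13 for Irf1, -0.10 (Wtap-CKO 3) to 0.21 for Ifi27, -0.058 (Wtap-CKO 3) to 0.29 for Ifi35, -0.050 (Wtap-flox 2) to 0.14 for Stat2 and -0.00097 (Wtap-flox 3) to 0.12 for Parp14, none past the threshold. The cause of these moves was not tested.

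With the replicate number as a block, 0 of the 27 genes were called and 1673 of all genes. Deviations of same-numbered libraries correlated at -0.216, -0.0752 and -0.0764, so no pairing by number was seen, but so few values cannot settle it. Depth limits the genes under 1 FPKM, several of which rest on fewer than 10 reads in a library, and arm sizes of 3 limit every test.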
